A study of Homo sapiens with 6 samples.

Results

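TKTL1 encodes a transketolase-like protein. In SUM159 cells kept in 1 µM decitabine for 72 h it had the second largest rise of 14884 genes, while none of 7 other enzymes of the pentose phosphate pathway passed the test, with or without the replicate number as a block, where 13.2% and 3.03% of all genes passed. Of 9 further genes of its entry and ribose use none passed without the block, and with it H6PD fell and PRPS1 and PRPSAP1 rose. The genes described are the 3 transketolases TKTL1, TKTL2 and TKT and 5 further enzymes of the pathway, TALDO1, PGD, PGLS, RPIA and RPE. They were found by their symbols in the platform annotation of the array. All 8 had a named feature, each had a single one, and they make up 8 of the 14884 genes with a name. TKTL1 was chosen because of its rise, so its change is given as a description with no test. The other 7 were chosen as transketolases or enzymes of the pathway, with earlier results of these data known.

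SUM159 is a cell line from a human breast carcinoma of the triple-negative class. Decitabine is a nucleoside drug that blocks DNA methyltransferases once cells have incorporated it into their DNA. Total RNA was measured on 6 single-colour arrays. Of these, 3 were from cells given 1 µM decitabine, with fresh medium each day for 72 h. The other 3 were from untreated cells kept in control medium for 72 h. Titles of the untreated samples also carry the 1 µM dose, and the treatment label, which gives them as NT, was followed. Both groups were grown in serum-containing medium with insulin and hydrocortisone, and it is not stated in the labels if the drug's solvent was in the control medium or if each sample came from a culture of its own. P-values therefore cover the spread between these arrays alone, and that spread may be technical.

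The pentose phosphate pathway branches from glycolysis at glucose phosphate. Its oxidative arm, with the lactonase PGLS and the dehydrogenase PGD, yields NADPH and ribulose phosphate. Its non-oxidative arm, with the isomerase RPIA, the epimerase RPE, transketolase TKT and transaldolase TALDO1, interconverts sugar phosphates and links ribose for nucleotides back to glycolysis. TKT needs thiamine diphosphate as its cofactor. TKTL1 and TKTL2 are paralogues of TKT. TKTL1 is known from germ cells of the testis and from several tumour types, and whether its product works as a transketolase is disputed.

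The log base of the deposited values is not stated. They were taken as log2, and every fold below rests on that reading. Array medians over all features were 2.98, 2.40 and 2.37 in decitabine replicates 1, 2 and 3 and 3.03, 2.42 and 2.29 in untreated replicates 1, 2 and 3. Both arrays of replicate 1 were therefore higher as a whole, and differences within same-numbered pairs are given beside the group values. Among markers of the line, ESR1 and PGR, the steroid receptors absent from triple-negative tumours, ran from 1.50 to 2.95 in decitabine and from 1.54 to 2.43 in untreated arrays, and neither passed the test. Of markers high in such lines, the growth factor receptor EGFR ran from 7.01 to 7.15 in decitabine and from 8.08 to 8.30 in untreated arrays and fell by 1.15 (limma adjusted p = 0.0195). The mesenchymal marker VIM changed by -0.55 without overlap of the groups (limma adjusted p = 0.317), and CD44 by 0.27 with overlap (0.924). ERBB2 had no named feature and was not analysed here. The 3 measured leukocyte markers of 7 (CD14, CD68 and LYZ) had a summed level, on the log2 scale, of 7.29 to 7.40 in decitabine and 6.76 to 7.03 in untreated arrays. CD14 was higher in every decitabine array than in any untreated one, with a change of 0.72 (limma adjusted p = 0.115), and rose with the replicate number as a block (0.0247). CD68, a lysosomal protein that made up most of that sum, changed by 0.50, also without overlap (limma adjusted p = 0.297, and 0.0739 with the block). LYZ overlapped between groups, and no measured marker was at 0. The summed level of 4 measured endothelial markers of 5 was 5.06 to 5.14 in decitabine and 4.89 to 5.39 in untreated arrays, and that of 5 luminal epithelial markers of 6 was 8.25 to 8.43 and 8.07 to 8.37. The luminal sum was mostly KRT18 and hides EPCAM, a surface protein of epithelia, which changed by 1.10 without overlap (limma adjusted p = 0.127) and rose with the block (0.00829), and KRT19, which changed by 0.63 (0.548) and also rose with the block (0.0380). The part of these marker levels in the results was not tested.

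TKTL1 (Entrez Gene 8277, X chromosome) had values of 8.16, 7.73 and 8.63 in decitabine replicates 1, 2 and 3, against 2.97, 2.02 and 2.71 in untreated replicates 1, 2 and 3. All 3 decitabine arrays lay far above all 3 untreated arrays, and the gap between the groups was several times the spread within either. The means were 8.17 ± 0.45 in decitabine and 2.57 ± 0.49 in untreated cells (SD, n = 3 per group), a difference of 5.61 on the log2 scale, or 48.7-fold. The differences within pairs 1, 2 and 3 were 5.19, 5.71 and 5.92. Within its own array, TKTL1 was above 95.4% to 97.8% of features, named or not, after decitabine and above 38.4% to 58.4% in untreated cells. It thus stood among the brightest features with the drug and near the middle without it. Medians over the named genes alone were 3.87, 3.42 and 3.40 in untreated replicates 1, 2 and 3, above the TKTL1 values there. No measure of background was used, and the size of a rise from such a dim level holds only for the deposited values.

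RefSeq lists more than 1 start for TKTL1, which are 9375 bases apart on GRCh38.p14, and the array's single TKTL1 feature does not tell which was used. The 300 bases around each start, 250 before it and 50 after it, are shown because decitabine acts on methylation at CpG sites. CpG sites are in capitals. The upstream window lies at chrX:154295545-154295844 and the downstream window at chrX:154304920-154305219, both on the plus strand, and windows of TKT (chr3:53255973-53256272) and TKTL2 (chr4:163473705-163474004), both on the minus strand, follow for comparison.
TKTL1, upstream start: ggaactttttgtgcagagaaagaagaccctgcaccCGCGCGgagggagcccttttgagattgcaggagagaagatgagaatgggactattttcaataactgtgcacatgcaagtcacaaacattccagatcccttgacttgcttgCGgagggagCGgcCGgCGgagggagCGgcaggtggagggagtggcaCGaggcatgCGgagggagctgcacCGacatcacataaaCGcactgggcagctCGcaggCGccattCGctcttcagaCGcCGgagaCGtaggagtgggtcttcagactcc
TKTL1, downstream start: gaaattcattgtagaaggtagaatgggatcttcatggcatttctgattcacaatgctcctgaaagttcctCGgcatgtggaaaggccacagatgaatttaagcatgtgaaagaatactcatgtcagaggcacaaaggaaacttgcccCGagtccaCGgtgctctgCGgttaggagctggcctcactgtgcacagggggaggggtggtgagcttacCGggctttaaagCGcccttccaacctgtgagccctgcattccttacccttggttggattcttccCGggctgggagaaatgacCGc
TKTL2: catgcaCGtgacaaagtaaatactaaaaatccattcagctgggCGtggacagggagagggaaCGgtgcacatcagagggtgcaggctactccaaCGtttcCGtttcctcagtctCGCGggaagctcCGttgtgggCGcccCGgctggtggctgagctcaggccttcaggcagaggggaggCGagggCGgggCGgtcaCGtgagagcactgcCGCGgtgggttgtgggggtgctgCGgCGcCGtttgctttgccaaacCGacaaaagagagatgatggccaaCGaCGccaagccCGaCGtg
TKT: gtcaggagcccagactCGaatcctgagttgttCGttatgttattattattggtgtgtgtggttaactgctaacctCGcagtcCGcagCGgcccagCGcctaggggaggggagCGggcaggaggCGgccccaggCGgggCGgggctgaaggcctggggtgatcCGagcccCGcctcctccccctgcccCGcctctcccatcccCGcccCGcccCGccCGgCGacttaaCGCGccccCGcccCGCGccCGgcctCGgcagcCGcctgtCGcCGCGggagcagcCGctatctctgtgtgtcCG

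The upstream TKTL1 window held 18 CpG sites and the downstream one 8, against 31 in the TKT window and 24 in that of TKTL2. Over all 35116 start windows of RefSeq the median was 14 CpG sites, and 44.5% of the windows held at least 18. The other members had 24 (RPE) to 44 (TALDO1), so both TKTL1 windows had fewer CpG sites than any other window of these 8 genes. No methylation data were analysed here, and the counts describe the reference sequence only.

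The upstream TKTL1 window also carries the octamer GGAGGGAG 5 times, with first bases 210, 104, 88, 72 and 49 bases before the start. This motif was noticed in the sequence and then counted. At least 1 copy on either strand was present in 9.17% of all start windows, and 5 or more copies in 0.0968%. Among the other members' windows only that of PGD held it, with 1 copy. The stretch with the last 4 copies, at chrX:154295691-154295753 on the plus strand, is shown with the octamers in capitals.
TKTL1, repeated octamer: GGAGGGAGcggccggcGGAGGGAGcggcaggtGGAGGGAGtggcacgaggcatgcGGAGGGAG

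The GC box GGGCGG, searched on both strands with overlaps allowed, was found in neither TKTL1 window, but 5 times in the TKT window and 1 to 3 times in each window of the other members, and 45% of all windows held it. The E-box CACGTG was found 2 times in the TKTL2 window and in no other window of these genes, against 7.26% of all windows. A core of the antioxidant response element, TGACNNNGC, was found once each in the windows of PGD and RPE, against 13.3% of all windows. These motifs were chosen with the expression values known, and a match is only letters in a window.

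**Figure D1:**
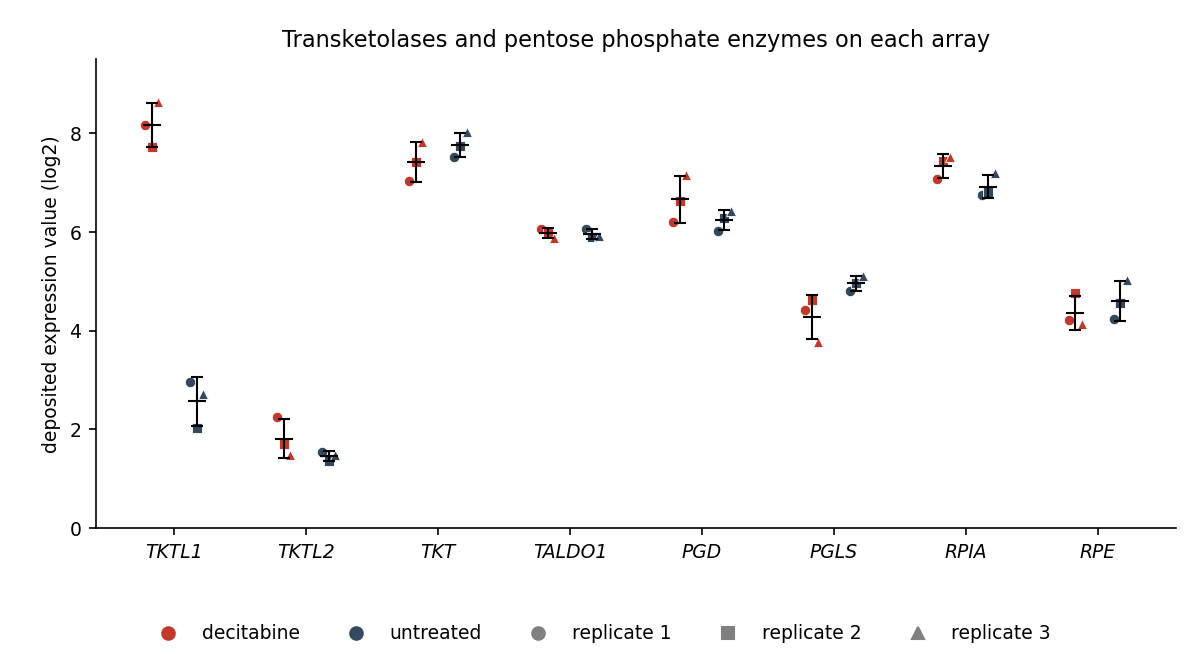
Deposited log2 values (vertical axis) of the 8 genes on each array, decitabine in red and untreated in dark blue, with replicates by symbol and black bars for the mean ± SD (n = 3 per group). TKTL1 sits at 7.73 to 8.63 after decitabine and at 2.02 to 2.97 in untreated cells, and the groups of the other genes overlap except for PGLS; values of different genes come from different probes and should not be ranked against each other.

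TKT (7086), the transketolase of the pathway proper, had values of 7.03, 7.41 and 7.83 in decitabine replicates 1, 2 and 3, against 7.53, 7.75 and 8.02 in untreated replicates 1, 2 and 3. The groups overlapped, while each decitabine array was below the untreated array of its number, by 0.50, 0.34 and 0.19. The change was -0.34 on the log2 scale (SE 0.26, 95% interval -0.95 to 0.27, limma adjusted p = 0.761), and the adjusted p was 0.147 with the replicate number as a block. TKTL2 (84076) was dim in every array, at 2.25, 1.70 and 1.48 in decitabine replicates 1, 2 and 3 and 1.55, 1.36 and 1.48 in untreated replicates 1, 2 and 3. Its change was 0.35 (95% interval -0.22 to 0.92, limma adjusted p = 0.710), with overlapping groups. In the 3 pairs the TKTL1 change exceeded that of TKT by 5.69, 6.05 and 6.11 and that of TKTL2 by 4.49, 5.37 and 5.92. The paralogues thus did not move with TKTL1 at the size of its rise, although smaller changes are not excluded. Their intervals are from the fit without the block and are wide in part because it leaves out the pairing. With the block the SE was 0.13 for TKT (limma unadjusted p = 0.0373) and 0.17 for TKTL2 (0.082).

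In the oxidative arm, PGLS (25796), the lactonase, had values of 4.41, 4.63 and 3.77 in decitabine replicates 1, 2 and 3, against 4.80, 4.97 and 5.11 in untreated replicates 1, 2 and 3. All 3 decitabine arrays lay below all 3 untreated arrays, with replicate 3 the lowest by far. It was the single member besides TKTL1 whose groups did not overlap, as was the case for 20.1% of all genes. The change was -0.69 (SE 0.27, 95% interval -1.30 to -0.08), with pair differences of -0.39, -0.34 and -1.34. Its limma adjusted p was 0.279, which does not pass. Without decitabine replicate 3 the change was -0.44 (limma adjusted p = 0.623). PGD (5226), the next enzyme and the second NADPH-forming step, had values of 6.21, 6.63 and 7.16 in decitabine replicates 1, 2 and 3, against 6.03, 6.28 and 6.42 in untreated replicates 1, 2 and 3. The groups overlapped, and each decitabine array was above its untreated partner, by 0.18, 0.35 and 0.74. The change was 0.42 (SE 0.28, 95% interval -0.22 to 1.06, limma adjusted p = 0.657), and it was 0.18 without decitabine replicate 3. Decitabine replicate 3 thus held both the lowest PGLS and the highest PGD value of the study.

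In the non-oxidative arm, RPIA (22934), the isomerase that forms ribose phosphate, had values of 7.07, 7.45 and 7.52 in decitabine replicates 1, 2 and 3, against 6.76, 6.82 and 7.19 in untreated replicates 1, 2 and 3. Each decitabine array was above its untreated partner, by 0.31, 0.63 and 0.33, and the groups overlapped through decitabine replicate 1 and untreated replicate 3. The change was 0.42 (SE 0.23, 95% interval -0.10 to 0.95), with a limma adjusted p of 0.510 and of 0.0956 with the replicate block. RPE (6120), the epimerase that works on the same substrate, had 4.21, 4.76 and 4.13 in decitabine replicates 1, 2 and 3 and 4.23, 4.56 and 5.02 in untreated replicates 1, 2 and 3. Its pairs disagreed in direction, with differences of -0.02, 0.20 and -0.89, and the change was -0.24 (95% interval -0.88 to 0.41, limma adjusted p = 0.936). TALDO1 (6888), transaldolase, was the steadiest member, with 6.07, 6.0 and 5.88 in decitabine replicates 1, 2 and 3 and 6.07, 5.90 and 5.91 in untreated replicates 1, 2 and 3. Its change was 0.02 (95% interval -0.41 to 0.46, limma adjusted p = 1), and 92.9% of all genes had a change at least as large in size.

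None of the 7 members besides TKTL1 passed an adjusted p of 0.05 in the limma fit, where 3.03% of all genes did, and none passed with the replicate block, where 13.2% did. At an unadjusted p under 0.05, 1 of the 7 passed without the block (PGLS) against 13.9% of all genes, and 4 passed with it (TKT, PGD, PGLS and RPIA) against 28.3%. Of the 7, 4 were higher and 3 lower after decitabine, and their median change was 0.02 against -0.02 over all genes. Their median size of change was 0.35 against 0.21 over all genes. The smallest change past the threshold over all genes was 0.89, larger than that of any of the 7.

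**Figure D2:**
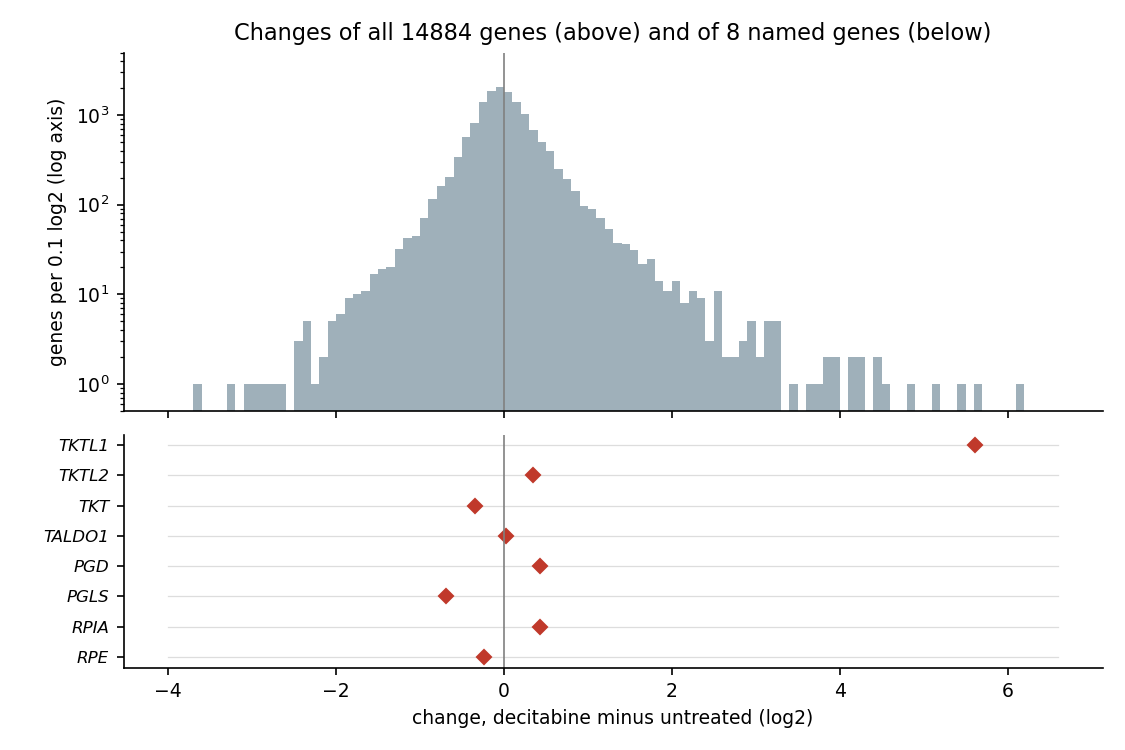
Upper panel, number of genes (log axis) by change, decitabine minus untreated, in steps of 0.1 on the log2 scale; lower panel, the changes of the 8 genes on the same axis. TKTL1 stands at 5.61 in the far right tail, and the other 7 genes lie between -0.69 and 0.42.

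The entry of the pathway and the use of its ribose were described with a list of 12 genes, of which 9 are described here. None of the 9 passed the limma fit without a block, and their median change was 0.15. With the replicate block PRPS1 and PRPSAP1 rose and H6PD fell. PRPS1, a synthetase that turns ribose phosphate into the nucleotide precursor PRPP, had 7.16, 7.26 and 7.05 in decitabine replicates 1, 2 and 3, against 6.68, 6.35 and 6.22 in untreated replicates 1, 2 and 3. The groups did not overlap, and the change was 0.74 (SE 0.21, limma adjusted p = 0.125, and 0.0246 with the block). PRPSAP1, which associates with the synthetases, had 5.21, 5.23 and 5.18 in decitabine replicates 1, 2 and 3 and 4.25, 4.67 and 4.56 in untreated replicates 1, 2 and 3, again without overlap. Its change was 0.71 (SE 0.20, limma adjusted p = 0.124, and 0.0260 with the block).

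H6PD, the enzyme that starts the oxidative arm inside the endoplasmic reticulum, had 2.81, 2.21 and 2.43 in decitabine replicates 1, 2 and 3, against 3.29, 3.12 and 3.80 in untreated replicates 1, 2 and 3. All decitabine values were below all untreated ones. Within its own array H6PD was above 45.0% to 51.3% of the features after decitabine and above 55.7% to 72.4% in untreated cells. The change was -0.92 (SE 0.26, limma adjusted p = 0.126, and 0.0308 with the block). DERA, the deoxyribose phosphate aldolase, changed by -0.60 (limma adjusted p = 0.394, and 0.0503 with the block). PRPS2, the other widely expressed synthetase, changed by 0.15 and PRPSAP2 by 0.37. The phosphoglucomutases PGM1 and PGM2 changed by 0.21 and 0.01, and RPEL1, a paralogue of RPE, by 0.09. For these 5 genes the limma adjusted p ran from 0.582 to 1, and from 0.104 to 0.961 with the block. RPE and RPEL1 are close copies, so their features may pick up both transcripts.

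**Figure D3:**
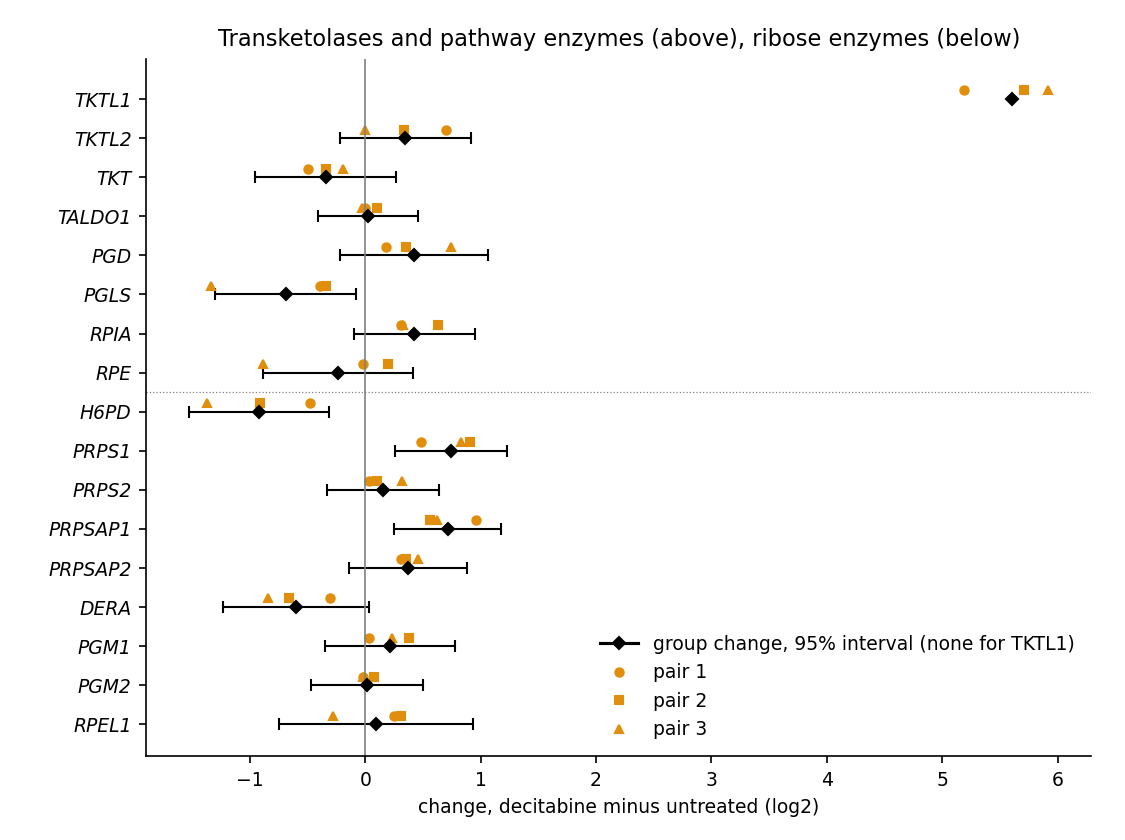
Change of each gene, decitabine minus untreated, on the log2 scale (horizontal axis), as black diamonds with 95% intervals from the limma fit and orange symbols for the 3 same-numbered pairs; the dotted line parts the 8 transketolases and pathway enzymes from the 9 ribose enzymes. No interval is drawn for TKTL1, which was chosen by its change, and the intervals of PGLS, H6PD, PRPS1 and PRPSAP1 do not reach 0, although none of these passed after adjustment without the block.

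Glycolysis shares its sugar phosphates with the pathway. Of 11 measured glycolysis genes of 23 listed, none passed with or without the block, and the median change was 0.04. The most changed was GPI, the isomerase at the branch point with the oxidative arm, at -0.42 (limma adjusted p = 0.629). Of 12 enzymes that form NADPH outside the pathway, NNT and MTHFD2L were measured and neither passed, with changes of -0.47 and -0.40 (limma adjusted p of 0.541 and 0.676). Of 14 genes of thiamine handling and thiamine diphosphate enzymes, 7 were measured, with a median change of 0.26. None passed without the block. OGDH, a subunit of the oxoglutarate dehydrogenase complex that shares the cofactor of TKT, changed by 0.64 (limma adjusted p = 0.203) and rose with the block (0.0279).

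NRF2, encoded by NFE2L2, is a transcription factor that raises antioxidant genes, and PGD, TKT and TALDO1 are among its known targets. Of 20 genes in the list 11 were measured, these 3 included, none passed without the block, and the median change was 0.16. KEAP1, the adaptor that marks NRF2 for degradation, had 5.94, 5.72 and 5.55 in decitabine replicates 1, 2 and 3, against 4.49, 4.70 and 4.94 in untreated replicates 1, 2 and 3. The groups did not overlap, and the change was 1.03 (SE 0.22), just short of the threshold (limma adjusted p = 0.0504) and past it with the block (0.0204). NFE2L2 itself changed by -0.53 (limma adjusted p = 0.358) and fell with the block (0.0420).

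A list of glutathione and thioredoxin enzymes and of enzymes against peroxides and superoxide held the single call of these lists. Many of these enzymes draw on NADPH through glutathione or thioredoxin. Of 19 listed genes 16 were measured, with a median change of 0.21. PRDX5 and the superoxide dismutases SOD1 and SOD2 had no named feature, so no listed enzyme against superoxide was measured. PRDX1, an abundant peroxiredoxin, had 9.88, 9.80 and 9.96 in decitabine replicates 1, 2 and 3, against 8.92, 9.05 and 8.98 in untreated replicates 1, 2 and 3. The groups did not overlap and varied little within themselves, and PRDX1 rose by 0.90 (SE 0.19, limma adjusted p = 0.0469, and 0.0101 with the block). That call was lost when any single array was left out (limma adjusted p between 0.0829 and 0.184) and after median centring (0.230). With the block GPX7, a peroxidase of the endoplasmic reticulum, also rose, by 1.15 (0.00628, and 0.108 without the block), and GPX8, a membrane-bound peroxidase of the same compartment, fell by 0.90 (0.00889, and 0.0616 without the block). Over the 51 genes of these 6 lists that are not among the 8 members, 1 rose and none fell without the block, and 6 rose and 3 fell with it. The shares over all genes were 2.01% up and 1.02% down without the block and 7.79% up and 5.37% down with it.

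**Figure D4:**
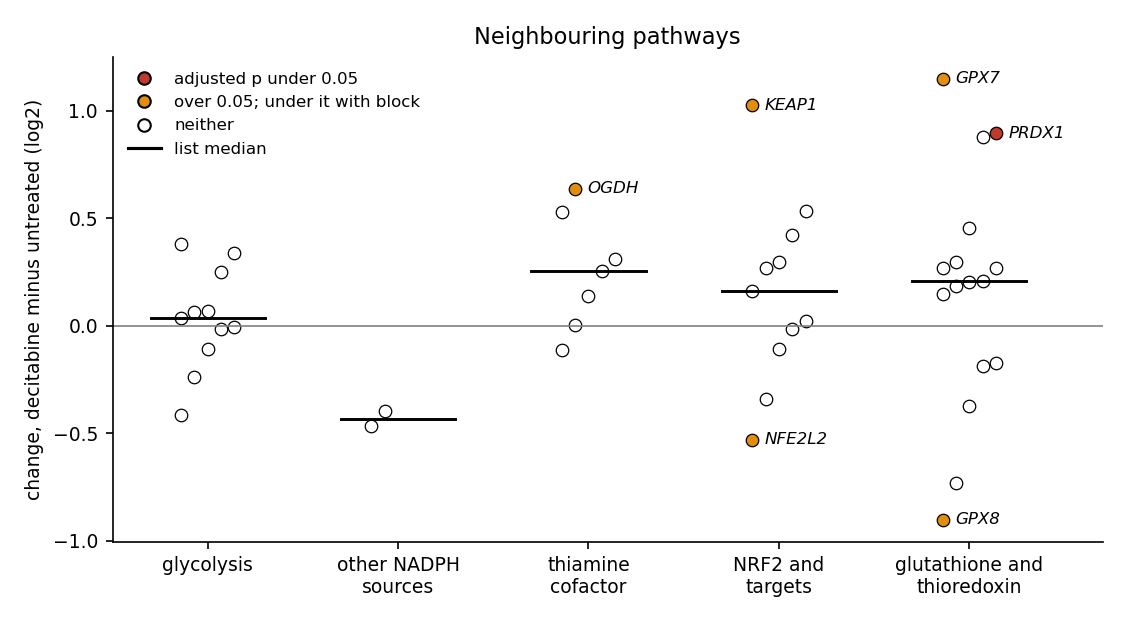
Change of each measured gene, decitabine minus untreated, on the log2 scale (vertical axis) in 5 lists, with bars for list medians. Red marks the single gene past an adjusted p of 0.05 without a block, PRDX1, and orange the genes that miss it without the block and pass with it (OGDH, KEAP1, NFE2L2, GPX7 and GPX8); medians lie between -0.43 and 0.26.

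Genes with the profile most like that of TKTL1 were found by the root-mean-square difference over the 6 arrays, after each gene's own mean was taken off. The 5 nearest were STOM (0.40), HORMAD1 (0.44), SYCP3 (0.56), MAEL (0.57) and GCNA (0.68), against a median of 2.85 over all genes. STOM encodes the membrane protein stomatin, HORMAD1 and SYCP3 are components of meiotic chromosome axes, MAEL acts in the piRNA pathway and GCNA is a germ cell nuclear protein. STOM, the nearest, had 7.56, 8.01 and 8.02 in decitabine replicates 1, 2 and 3, against 2.99, 2.47 and 2.60 in untreated replicates 1, 2 and 3. SYCP3, the gene with the largest rise of all, had 8.36, 7.64 and 7.63 in decitabine replicates 1, 2 and 3, against 2.00, 1.78 and 1.37 in untreated replicates 1, 2 and 3. In contrast to TKTL1, whose highest decitabine value was in replicate 3, SYCP3 had its highest in replicate 1. GCNA had 7.34, 6.89 and 7.08 in decitabine replicates 1, 2 and 3, against 2.41, 2.69 and 2.54 in untreated replicates 1, 2 and 3. Within their own arrays the 5 were above 88.8% to 97.2% of the features after decitabine and above at most 56.3% in untreated cells. The measure favours genes with a rise of the same size, and these 5 and TKTL1 were the 6 genes with the largest rises.

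None of the 3 nearest measured genes on each side of TKTL1 on the X chromosome passed the test. Of the genes directly beside it only TEX28 was measured, and 2 to 12 RefSeq genes lie between TKTL1 and each of the other 5. TEX28, the gene just before it in the RefSeq order, had 3.29, 2.93 and 2.37 in decitabine replicates 1, 2 and 3, against 2.82, 3.20 and 1.94 in untreated replicates 1, 2 and 3. The groups overlapped, and the change was 0.21 (SE 0.37, 95% interval -0.65 to 1.07, limma adjusted p = 0.981). TEX28 had 3 named features, and the one with the highest mean is given. TEX28 has several near-identical copies beside it, so its value is uncertain. The next measured genes before it, IRAK1, a kinase of innate immune receptors, and the microRNA gene MIR3202-1, changed by -0.34 and 0.11. After TKTL1, EMD, which encodes the nuclear envelope protein emerin, changed by -0.12, the ribosomal protein gene RPL10 by -0.39 and the nuclease gene DNASE1L1 by 0.12. The limma adjusted p of all 6 neighbours was 0.548 to 0.999, and 0.0965 to 0.709 with the block. Of 569 measured genes of the X chromosome 22 rose (3.87%, against 2.01% of all genes) and 5 fell, the median change was 0.01, and TKTL1 had the largest rise among them. The X chromosome was singled out after its values were seen.

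**Figure D5:**
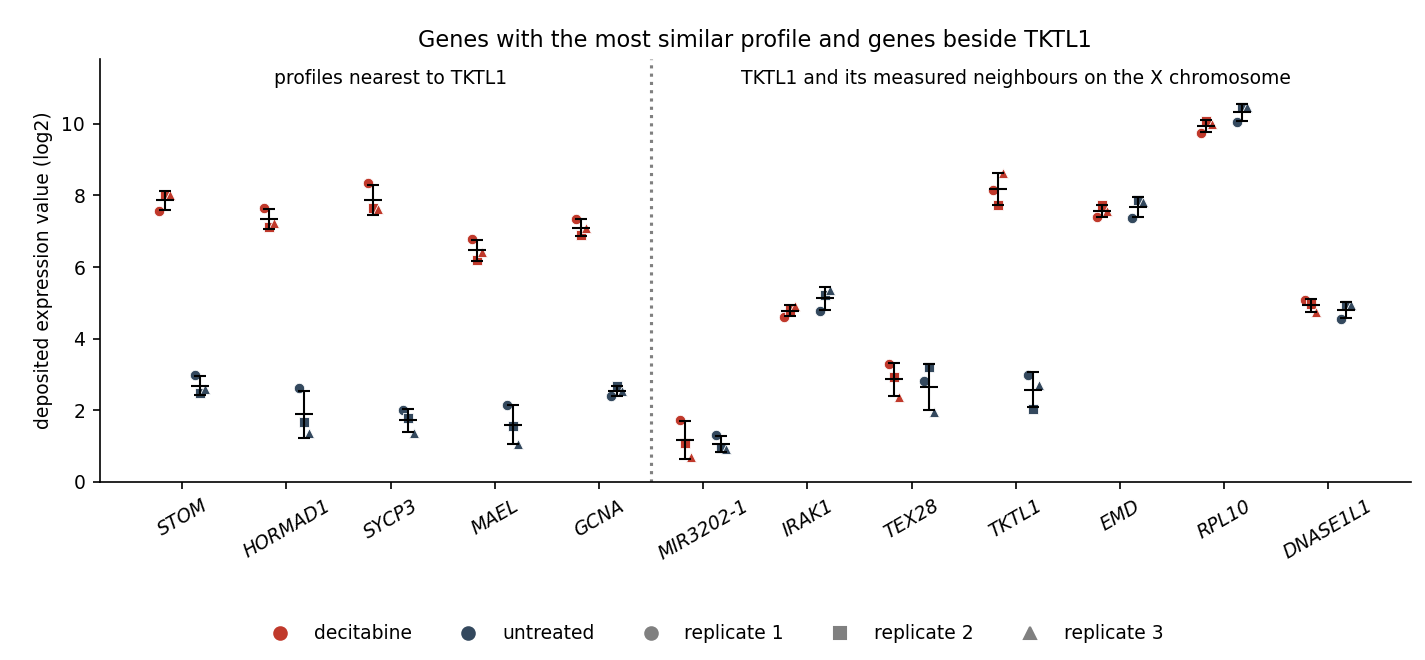
Deposited log2 values (vertical axis) on each array of the 5 genes with profiles nearest to TKTL1 (left) and of TKTL1 with its 3 nearest measured genes on each side of the X chromosome (right), decitabine in red and untreated in dark blue, with the mean ± SD (n = 3 per group). The groups of the left-hand genes lie 4.56 (GCNA) to 6.16 (SYCP3) apart, against 5.61 for TKTL1, and the groups of its 6 neighbours overlap.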

How the data were processed

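Total RNA of SUM159 cells was measured on 6 biotin-labelled arrays, 3 from decitabine-treated and 3 from untreated cells, grouped by the treatment label. Per the submitters' processing notes, the authors used the Transcriptome Analysis Console. Not given in the sources used here: its version, the normalization and any filter. The deposited values, which ran from 0.17 to 12.89, were taken to be log2.

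Of 48226 features 16098 had a single gene symbol, none had several and 32128 were unnamed here. All 16098 matched RefSeq (GRCh38.p14) by Entrez Gene ID, which updated the symbols and gave 14884 genes. The feature with the highest mean stood for its gene. Groups were compared with limma 3.58.1 (lmFit, eBayes) in R 4.3.3 over all genes, without a covariate, two-sided, with Benjamini-Hochberg adjustment. "Rose" and "fell" mean an adjusted p under 0.05. The fit was tested on simulated data with independent noise in each array. These held no effect shared by arrays of the same replicate number, so the test does not cover such an effect.

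Replicate numbers in the titles were taken to pair the arrays. Deviations from group means correlated at 0.682, 0.595 and 0.558 between same-numbered arrays and at -0.483 to -0.006 between the others. Deviations within a group cancel out, so the negative values follow in part from the positive ones and are not separate evidence. Values with that block are given where they change a call. Intervals are 95% intervals of the change from the fit without the block.

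Genes and lists were chosen with earlier results of these data known. The rule named the 8 members, all measured ribose genes, the genes of other lists past the threshold or the most changed one, the 5 genes nearest to TKTL1 and 3 measured neighbours on each side. MTHFD2L, NFE2L2, GPX7, GPX8 and the marker genes were named outside it, after their values were seen. Start windows are from RefSeq (GRCh38.p14), where all 8 members matched. Alternatives were the block, quantile normalization, median centring, leaving out the dimmer 50% of genes, the mean of a gene's features, all features tested, a variance trend, and leaving out arrays. The number of arrays limits the precision.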

Additional observations from a re-analysis of the deposited data

How the results depend on the processing

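The TKTL1 change stayed between 5.33 and 5.83 on the log2 scale under the 14 alternatives run, and the count of the other 7 members past the threshold was 0 under each. The numbers of genes higher and lower, 299 and 152, were 1159 and 800 with the replicate block, 551 and 387 with quantile normalization, 280 and 91 with median centring, 557 and 432 without the dimmer 50% of genes, and 694 and 468 with a variance trend. Without 1 array they ran from 95 to 321 and from 33 to 156, with 180 and 98, 95 and 35, and 152 and 47 when decitabine replicates 1, 2 and 3 were left out in turn, and 107 and 33, and 135 and 53, when untreated replicates 2 and 3 were. The cause was not tested. Among the 51 listed genes outside the members, 1 higher and 0 lower, the counts were 6 and 3 with the replicate block, 4 and 1 without the dimmer 50% of genes, 3 and 1 with quantile normalization, 4 and 1 with a variance trend, 2 and 0 with the mean of a gene's features, 0 and 0 with all features tested, 0 and 0 without both arrays of replicate 1, and 0 to 1 higher without 1 array.

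Changes near 0 reversed. TALDO1 was -0.017 with quantile normalization. With 1 array left out, TALDO1 ran from -0.02 (decitabine replicate 1) to 0.078, below 0 also without untreated replicate 2 or 3. PGM2 ran from -0.075 (untreated replicate 1) to 0.118, below 0 also without decitabine replicate 2 or 3. RPEL1 ran from -0.222 (decitabine replicate 1) to 0.433, below 0 also without untreated replicate 3. With the dimmer 50% of genes left out, TKTL2, H6PD and RPEL1 were no longer tested, while PRPS1 and PRPSAP1 passed (limma adjusted p of 0.0299 and 0.0281). PRPS1 also passed with the variance trend (0.0123), as did OGDH (0.0483). KEAP1 passed without the dimmer genes (0.0111), with quantile normalization (0.0267), with the variance trend (0.00836) and with the mean of a gene's features (0.0497). The replicate block changed no call among the 7 members tested.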
